A study of Rattus norvegicus with 9 samples.

Results

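Endothelial genes of 2 kinds were followed in rat liver: 6 genes of the liver sinusoid (Lyve1, Stab1, Stab2, Clec4g, Fcgr2b and Gata4) and 4 genes of continuous or capillarised vessels (Cd34, Plvap, Vwf and Pecam1). These 10 genes are a list of symbols chosen for known vessel roles, with earlier results of these data known. The tables listed 9 of them among the 16730 genes common to all groups, and Pecam1 was not analysed here. Poly(A) RNA was sequenced from 9 whole livers of male Sprague–Dawley rats, 3 in each of 3 groups. Model rats received carbon tetrachloride (CCl4, a hepatotoxin that scars the liver) by gavage at 2 ml/kg of a 50% oil solution, 2 times a week for 9 weeks. TA rats received the same CCl4 course and then tormentic acid (TA), a plant triterpenoid, at 3.0 mg/kg for 6 weeks, and Normal rats received saline in place of CCl4. All rats were fasted for 12 h before collection. Each liver is 1 rat, and the ages were not given in the sources used here.

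The liver sinusoid is lined by endothelial cells that lack a basement membrane, are perforated by open fenestrae, and clear waste molecules from blood through scavenger and lectin receptors. In chronic injury these cells can lose fenestrae and scavenger receptors and gain surface proteins of ordinary capillaries, a change called capillarisation. Gata4 is the transcription factor that keeps this lining in its sinusoidal form. In whole tissue, fewer cells of a type and less RNA per cell cannot be told apart.

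Promoters from RefSeq (build GRCr8) were matched for 6 of the 10 genes: Lyve1, Stab1, Stab2, Clec4g, Cd34 and Plvap. Vwf, Fcgr2b, Gata4 and Pecam1 had no entry. The 4 sequences below belong to the members with the largest differences between groups among those matched, so that both kinds of vessel gene can be compared. Each is the 250 bases before the transcription start, read 5′ to 3′ along the gene, and capitals mark any match to a GATA motif (AGATAA or TGATAA) or an ETS motif (AGGAAG) on either strand.
Stab2, chr7:23320563-23320812, minus strand: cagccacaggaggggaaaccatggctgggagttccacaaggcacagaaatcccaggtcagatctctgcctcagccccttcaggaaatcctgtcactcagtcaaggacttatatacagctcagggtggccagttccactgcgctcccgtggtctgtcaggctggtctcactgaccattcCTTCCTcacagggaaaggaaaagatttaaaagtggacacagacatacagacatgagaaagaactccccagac
Clec4g, chr12:6582914-6583163, minus strand: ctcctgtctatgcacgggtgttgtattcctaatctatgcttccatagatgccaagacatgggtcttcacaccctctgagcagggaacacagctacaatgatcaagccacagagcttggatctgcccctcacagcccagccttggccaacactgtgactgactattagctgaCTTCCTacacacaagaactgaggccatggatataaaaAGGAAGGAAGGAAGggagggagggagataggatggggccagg
Cd34, chr13:109008536-109008785, plus strand: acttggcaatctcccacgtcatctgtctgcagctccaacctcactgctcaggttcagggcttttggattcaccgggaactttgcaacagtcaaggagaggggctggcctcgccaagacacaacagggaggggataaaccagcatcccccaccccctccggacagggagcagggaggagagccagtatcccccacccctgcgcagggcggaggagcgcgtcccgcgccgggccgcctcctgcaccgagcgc
Plvap, chr16:18231280-18231529, minus strand: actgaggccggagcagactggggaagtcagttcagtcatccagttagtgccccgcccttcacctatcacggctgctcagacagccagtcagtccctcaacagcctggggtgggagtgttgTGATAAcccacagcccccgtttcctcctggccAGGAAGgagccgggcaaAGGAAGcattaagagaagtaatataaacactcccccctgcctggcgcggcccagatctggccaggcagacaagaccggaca
The scavenger receptor Stab2 held 1 ETS match, starting 72 bases before the start. The lectin Clec4g held 4 ETS matches, starting 79, 42, 38 and 34 bases before it, and the last 3 of them overlap in one purine-rich repeat. Plvap held ETS matches 98 and 81 bases and a GATA match 130 bases before the start, and the Cd34 window held neither motif. Lyve1 had 1 ETS match 43 bases before the start and Stab1 had none. Over windows of 300 bases (250 before to 50 after the start) of all 33469 promoters in the table, 18.9% held a GATA match and 34.5% an ETS match. A match is a description of letters, not a binding site.

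Total counts ran from 13156735 to 18090405 per library. The library Model 1 stood apart: its 50 most abundant genes took 27.9% of its counts, against 40.4 to 45.7% in the other 8, and its scaling factor was 1.70. Levels are CPM (read counts per library size, after trimmed-mean scaling, TMM), unless FPKM, which also divides by gene length, is named. Differences were tested with edgeR's quasi-likelihood test over all genes. The count of members was read by 2 rules: an adjusted p under 0.05 (called the adjusted p), and a raw p under 0.05 joined to a log2 change larger than 1 in size (called p and fold, the thresholds of the study's methods). All 9 listed members passed the filter on low counts in each comparison. In Model VS Normal and TA VS Model, Cd34 did so only with its counts in Model, so its calls there carry no weight as support.

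In Normal livers the sinusoidal genes were the more abundant kind per length. Clec4g stood at 23.7 ± 7.36 FPKM (SD, n = 3), Fcgr2b at 16.6 ± 3.50 and Lyve1 at 13.2 ± 1.56. Gata4 (5.65 ± 0.782 FPKM), Plvap (5.60 ± 2.51) and Stab1 (5.07 ± 1.38) followed and overlapped one another. Stab2 (2.59 ± 0.471 FPKM) was next, then Vwf (1.60 ± 0.322) and Cd34 (0.369 ± 0.362). The top 3 genes overlapped as neighbours, whereas Lyve1 was above Gata4, Stab1 above Stab2, Stab2 above Vwf and Vwf above Cd34 without overlap in the 3 livers. The lowest of the 9 in Normal was therefore Cd34. In Model every neighbour in the order overlapped the next, and Stab2 was the lowest, at 1.75 ± 1.62 FPKM.

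**Figure D1:**
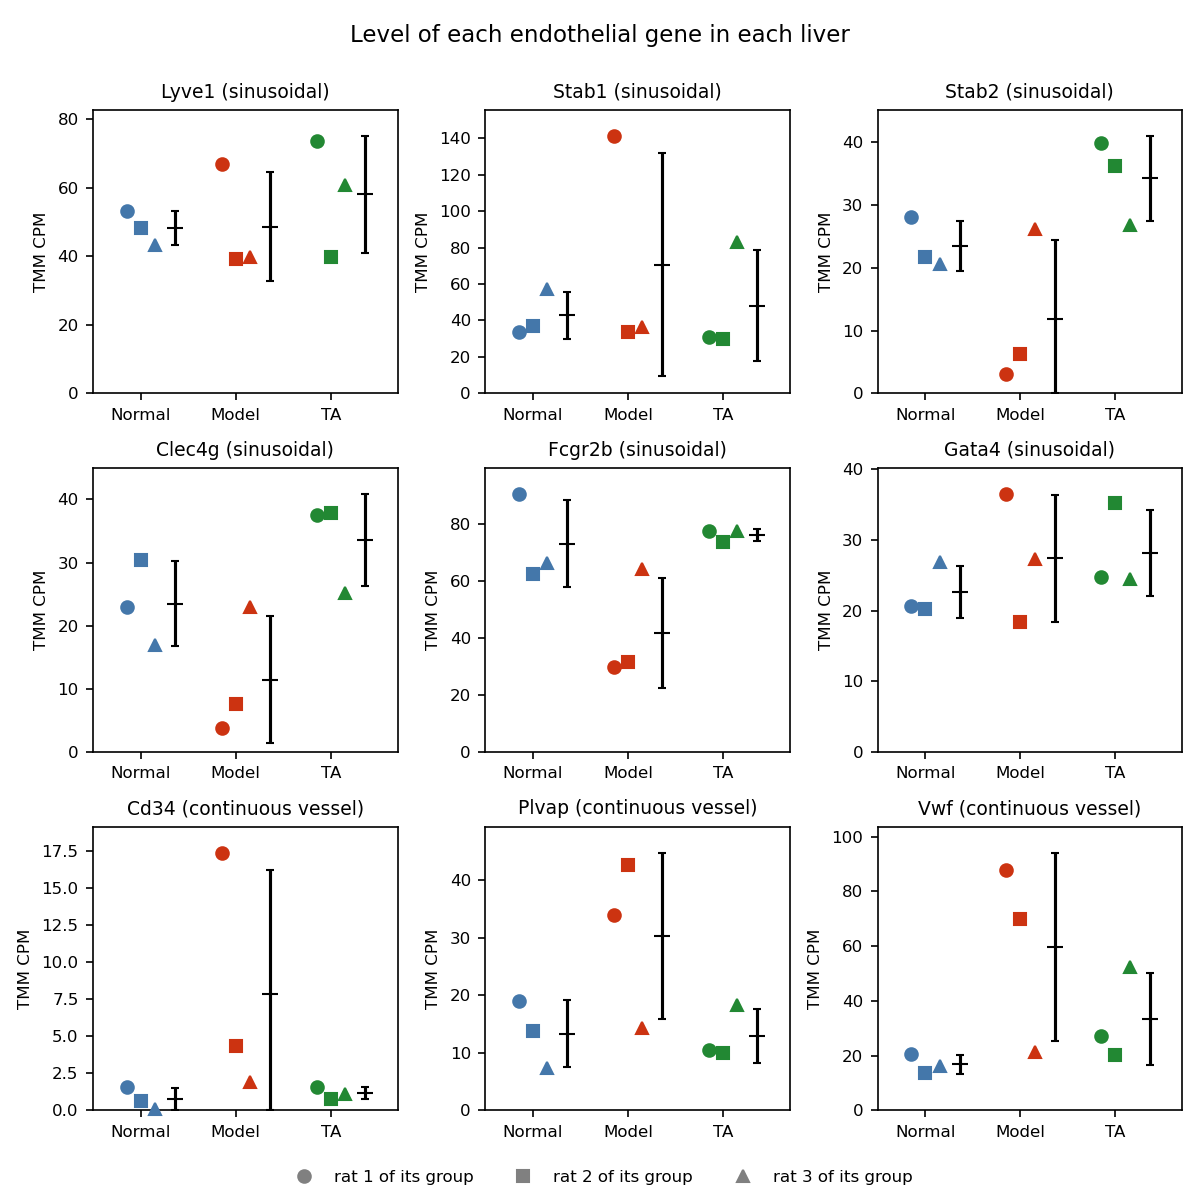
TMM CPM (linear axis from 0) of the 9 listed genes in each liver, by group, with symbols for the rat number and black bars for the mean ± SD of 3 livers (the lower arm stops at 0). Model 1 and Model 2 sit below the Normal livers for Stab2, Clec4g and Fcgr2b and above them for Cd34, Plvap and Vwf, while Model 3 lies close to the Normal livers.

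The first comparison, Model VS Normal, asks what CCl4 did to the vessel genes. The continuous-vessel genes were higher in Model. Cd34, a sialomucin of capillary endothelium that the normal sinusoid largely lacks, gave 1.58, 0.644 and 0.0839 CPM in Normal and 17.4, 4.34 and 1.91 CPM in Model, from raw counts of 19, 10 and 1 against 387, 66 and 27. All 3 Model livers were above all 3 Normal livers. The log2 fold change of Cd34 was 3.36 (SE 1.04, adjusted p = 0.0831, edgeR).

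Vwf, the von Willebrand factor that tethers platelets, stood at 20.4, 13.6 and 16.4 CPM in Normal and 87.7, 70.1 and 21.2 CPM in Model. The groups did not overlap, though Model 3 lay just above the highest Normal liver. The log2 fold change of Vwf was 1.83 (SE 0.485, adjusted p = 0.0578, edgeR). Plvap, the protein of the diaphragms that close fenestrae, stood at 18.9, 13.7 and 7.30 CPM in Normal and 33.9, 42.5 and 14.4 CPM in Model. Model 3 fell within the Normal range, so the groups overlapped, and the log2 fold change of Plvap was 1.19 (SE 0.467, adjusted p = 0.141, edgeR).

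Of the sinusoidal genes, the 2 endocytic receptors Stab2 and Clec4g and the Fc receptor Fcgr2b were low in 2 of the 3 Model livers. Stab2, the hyaluronan and scavenger receptor, stood at 28.1, 21.8 and 20.6 CPM in Normal and 3.05, 6.32 and 26.2 CPM in Model. Clec4g, a C-type lectin of the sinusoid, stood at 23.0, 30.4 and 17.0 CPM in Normal and 3.86, 7.64 and 22.9 CPM in Model. For both genes Model 1 and Model 2 were below every Normal liver and Model 3 was inside the Normal range. The log2 fold changes were -0.99 for Stab2 (SE 0.683, adjusted p = 0.365, edgeR) and -1.04 for Clec4g (SE 0.593, adjusted p = 0.283, edgeR).

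Fcgr2b, the receptor through which the sinusoid takes up immune complexes, stood at 90.4, 62.5 and 66.5 CPM in Normal and 29.8, 31.6 and 64.2 CPM in Model. Model 3 again lay within the Normal range. The log2 fold change of Fcgr2b was -0.80 (SE 0.349, adjusted p = 0.174, edgeR). Fcgr2b shares long stretches of near-identical sequence with other Fc receptor genes, so its counts are uncertain where reads could be assigned to either.

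The other 3 sinusoidal genes showed no shared direction in the Model livers. Lyve1, a hyaluronan receptor of sinusoids and lymphatics, stood at 53.2, 48.2 and 43.4 CPM in Normal and 67.1, 39.2 and 39.8 CPM in Model, a log2 fold change of 0.02 (SE 0.274, adjusted p = 0.973, edgeR). Stab1, the scavenger receptor related to Stab2 that macrophages also carry, stood at 33.9, 37.1 and 57.4 CPM in Normal and 141.3, 33.8 and 36.6 CPM in Model, a log2 fold change of 0.73 (SE 0.562, adjusted p = 0.415, edgeR). Gata4 stood at 20.7, 20.3 and 26.9 CPM in Normal and 36.5, 18.4 and 27.3 CPM in Model, a log2 fold change of 0.28 (SE 0.291, adjusted p = 0.548, edgeR). In each of these 3 genes the highest Model liver was Model 1.

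By adjusted p, 0 of the 9 members passed in Model VS Normal, where 7.87% of the 12730 genes tested did (6.86% as higher). By p and fold, 3 of 9 passed (Cd34, Plvap and Vwf, each higher), against 22.1% of all genes, 16.6% in the higher and 5.55% in the lower direction. At an unadjusted p under 0.05 the same 3 members were counted, against 28.9% of all genes. DESeq2 placed 2 of 9 members under an adjusted p of 0.05, Cd34 and Vwf, and 20.8% of all genes, a like share. The groups did not overlap for 2 of 9 members, Cd34 and Vwf, against 38.2% of all genes. Cd34 passed the filter only with its Model counts, so its part in these counts and in the vessel median carries no weight as support. The median log2 fold change was -0.39 over the 6 sinusoidal genes and 1.83 over the 3 vessel genes, beside 0.02 over all genes tested.

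**Figure D2:**
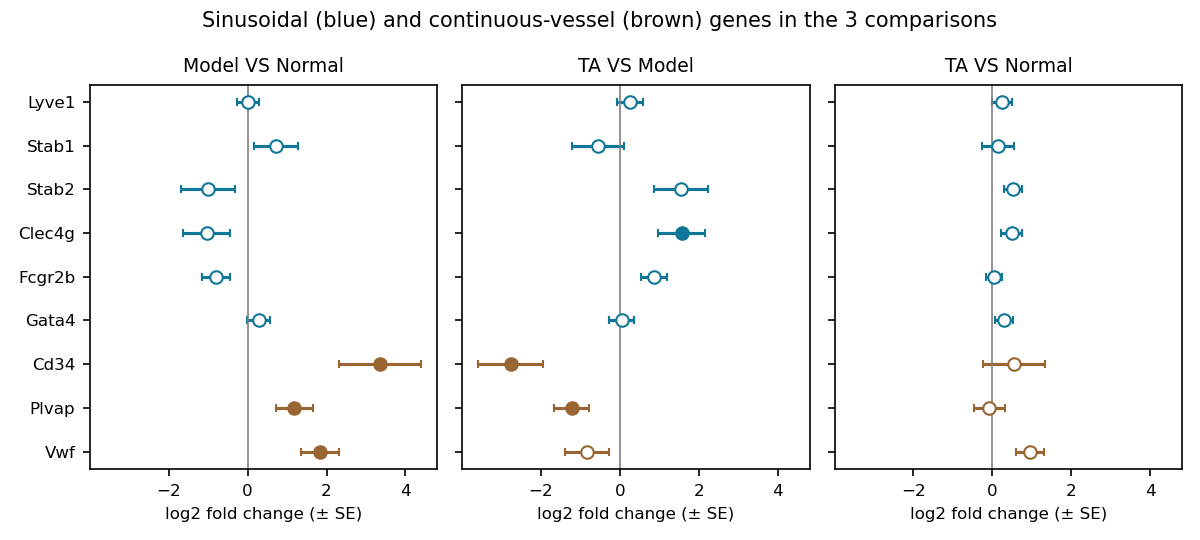
Fitted log2 fold change ± SE (horizontal axis, edgeR) of the 9 genes in Model VS Normal, TA VS Model and TA VS Normal, sinusoidal genes in blue and continuous-vessel genes in brown, filled where p and fold both passed. Cd34, Plvap and Vwf are filled to the right in Model VS Normal, and Clec4g to the right with Cd34 and Plvap to the left in TA VS Model.

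These results rested on which Model liver was counted. Against the Normal range, Model 2 lay below it for all 6 sinusoidal genes and above it for all 3 vessel genes. Model 1 lay below it for 3 sinusoidal genes (Stab2, Clec4g, Fcgr2b), above it for the other 3, and above it for the 3 vessel genes. Model 3 was within it for 4 of the 6 sinusoidal genes. Without Model 3, 6 of the 9 members passed the adjusted p, in a fit that called 19.3% of all genes. The log2 fold changes were then -2.35 for Stab2, -2.06 for Clec4g, -1.27 for Fcgr2b, 3.80 for Cd34, 1.5 for Plvap and 2.22 for Vwf, with adjusted p from 0.00581 (Vwf) to 0.0363 (Plvap) in edgeR.

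Without Model 1, all 6 sinusoidal genes had negative fitted values, from -0.65 (Clec4g) to near 0 (Gata4), and 0 of them passed either rule. The same fit gave 2.00 for Cd34 (adjusted p = 0.197, edgeR), 1.08 for Plvap (adjusted p = 0.236) and 1.43 for Vwf (adjusted p = 0.0949). Lyve1, Stab1 and Gata4 thus had a positive value only with Model 1 included. Without Model 2, 0 members passed the adjusted p, and the values for Stab2, Clec4g and Plvap were -0.69, -0.82 and 0.86.

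The classes were then set against each other inside each liver, a ratio that library scaling leaves as it is. The summed FPKM of the 6 sinusoidal genes divided by that of the 3 vessel genes was 6.64, 9.51 and 12.9 in Normal. It was 1.79, 1.32 and 7.0 in Model and 11.6, 12.8 and 5.95 in TA. Model 1 and Model 2 were the lowest 2 of the 9 livers, Model 3 was inside the Normal range, and TA 3 was just below it. The sums behind these ratios differed: in Model 1 the sinusoidal sum was 111 FPKM, above the Normal 58.1 to 71.4, and the vessel sum 62.0, against 4.52 to 10.7 in Normal. In Model 2 the sinusoidal sum was 47.9 FPKM, below Normal, and the vessel sum 36.5. The ratio of Stab2 to Vwf alone, a pair picked after its values were seen, was 1.60, 1.85 and 1.46 in Normal, 0.0404, 0.105 and 1.43 in Model, and 1.69, 2.07 and 0.593 in TA.

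On the log2 CPM scale, the mean of the sinusoidal genes exceeded that of the vessel genes by 2.04, 2.68 and 3.51 in Normal and by 2.45, 2.83 and 2.02 in TA. In Model the difference was -0.73, -0.37 and 1.99, so the vessel genes had the higher mean in Model 1 and Model 2. These values describe the members as a group, Cd34 included, and carry no test.

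**Figure D3:**
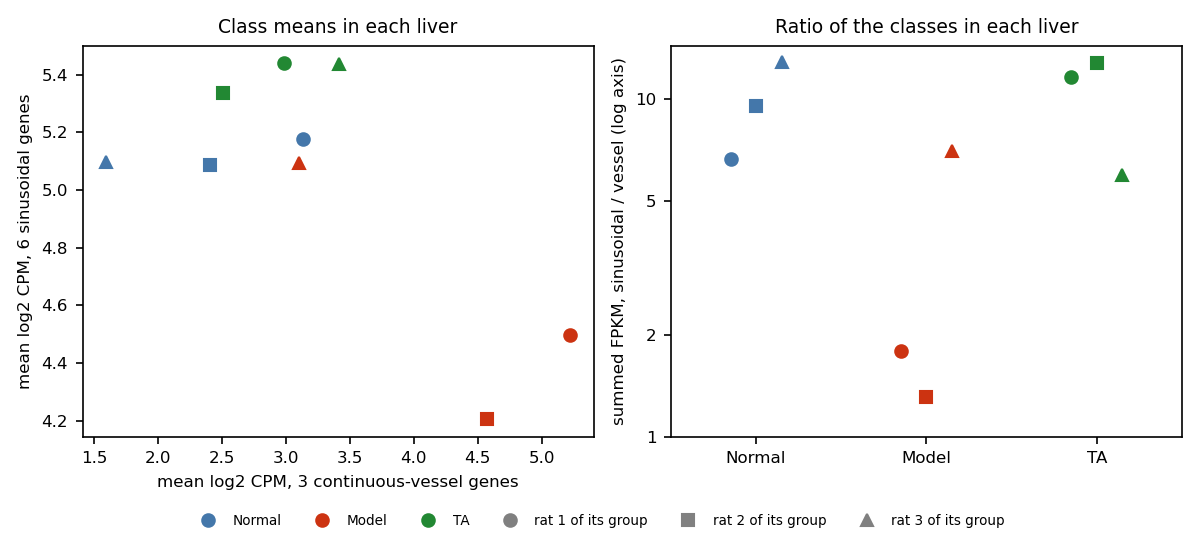
Left, mean log2 CPM of the 6 sinusoidal genes (vertical) against that of the 3 continuous-vessel genes (horizontal) in each of the 9 livers. Right, summed FPKM of the sinusoidal genes divided by that of the vessel genes (log axis) by group, where Model 1 at 1.79 and Model 2 at 1.32 lie below the other 7 livers, which run from 5.95 to 12.9.

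Endothelial content can differ between livers, so each member was also read relative to the mean log2 CPM of 14 listed pan-endothelial genes (such as the junction cadherin Cdh5 and the angiopoietin receptors Tie1 and Tek). That mean was 3.90, 3.64 and 3.65 in Normal, 5.43, 4.32 and 3.74 in Model, and 3.89, 3.86 and 4.19 in TA. Relative to it, the Model minus Normal difference was -0.80 for Lyve1 and -1.65 for Fcgr2b, in log2 units. It was 2.26 for Cd34 and 0.84 for Vwf on the same scale. For these 4 genes the 3 Model livers did not overlap the 3 Normal livers, and each had an exact two-sided permutation p of 0.1, the smallest that 3 against 3 allows. No share over all genes was taken on this scale, and on plain CPM 38.2% of all genes did not overlap. Cd34 passed the filter only with its Model counts, so its value here carries no weight as support. Lyve1 overlapped on plain CPM (log2 fold change 0.02), where Model 1 was above every Normal liver. The reference mean was above Normal in Model 1 and Model 2 but inside the Normal range in Model 3. Lyve1 itself was below the lowest Normal liver (43.4 CPM) in Model 2 (39.2 CPM) and Model 3 (39.8 CPM).

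Among the sinusoidal genes, Stab2 and Clec4g had the largest relative differences, -2.29 and -2.13, and the groups overlapped through Model 3 (exact permutation p = 0.4 and 0.3). Plvap differed by 0.37 relative to the list (exact permutation p = 0.6), Stab1 by -0.34 (exact p = 0.5) and Gata4 by -0.54 (exact p = 0.3). All 6 sinusoidal genes were lower and all 3 vessel genes higher than in Normal on this relative scale, although Plvap turned to -0.24 with Cdh5 alone as the reference and to -0.03 without Model 2.

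The second comparison, TA VS Model, asks how livers treated with TA after CCl4 differed from untreated ones. It shares the Model livers with the first, so the direction of one bears on the other. Stab2 stood at 39.9, 36.2 and 26.8 CPM in TA, all above the highest Model value of 26.2, a log2 fold change of 1.55 (SE 0.695, adjusted p = 0.328, edgeR). Clec4g stood at 37.6, 37.9 and 25.1 CPM in TA, again above every Model liver, with 1.56 (SE 0.591, adjusted p = 0.286, edgeR). Fcgr2b stood at 77.5, 73.6 and 77.4 CPM in TA, above every Model liver, with 0.87 (SE 0.335, adjusted p = 0.291, edgeR). For Stab2 and Clec4g the margin between TA 3 and Model 3 was small.

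The vessel genes lay the other way. Cd34 gave 1.57, 0.761 and 1.12 CPM in TA, all below the lowest Model value of 1.91, a log2 fold change of -2.77 (SE 0.821, adjusted p = 0.258, edgeR). Plvap stood at 10.5, 9.90 and 18.4 CPM in TA, of which TA 3 lay above Model 3, with -1.23 (SE 0.435, adjusted p = 0.276, edgeR). Vwf stood at 27.3, 20.3 and 52.4 CPM in TA, with Model 3 (21.2) inside that range, and -0.84 (SE 0.549, adjusted p = 0.458, edgeR). Thus Cd34 was the one vessel gene whose TA and Model livers did not overlap.

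Lyve1 (73.6, 39.7 and 61.0 CPM in TA), Stab1 (31.0, 30.1 and 83.3) and Gata4 (24.7, 35.3 and 24.5) overlapped the Model livers. Their log2 fold changes were 0.25 (SE 0.333), -0.56 (SE 0.649) and 0.04 (SE 0.307), with adjusted p of 0.716, 0.679 and 0.958 in edgeR. With Model 1 left out, Stab1 turned to 0.47. TA 3 was the highest TA liver for Stab1, Plvap and Vwf and the lowest for Stab2 and Clec4g.

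By adjusted p, 0 of 9 members passed in TA VS Model, and edgeR placed 0% of the 12781 genes tested there. At an unadjusted p under 0.05, 4 members passed without a fold limit (Clec4g, Fcgr2b, Cd34 and Plvap; 15.6% of all genes), and DESeq2 placed 1 member, Cd34, and 4.23% of all genes under an adjusted p of 0.05. By p and fold, 3 of 9 passed: Clec4g higher, where 2.11% of all genes were called, and Cd34 and Plvap lower, where 10.2% were (12.3% in either direction). The groups did not overlap for 4 of 9 members (Stab2, Clec4g, Fcgr2b and Cd34), against 23.1% of all genes. Cd34 again passed the filter only with its Model counts, so its part in these counts carries no weight as support. Without Model 3, 6 members passed p and fold, with 21.2% of all genes. Leaving out Model 2, TA 1 or TA 2 left 1 member, with 12.2%, 10.4% and 7.34% of all genes. Relative to the pan-endothelial list, only Cd34 gave groups that did not overlap, with -1.62 (exact permutation p = 0.1, the smallest that 3 against 3 allows). No share over all genes was taken on that scale, and this value of Cd34 carries no weight as support either.

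In TA VS Normal the question is what remained different after treatment. By adjusted p, 0 of 9 members passed, against 0.263% of the 12179 genes tested, and by p and fold 0 passed, against 5.25%. DESeq2 also placed 0 under an adjusted p of 0.05, and at an unadjusted p under 0.05 edgeR counted 1, Vwf, against 9.43% of all genes. On CPM, the groups did not overlap for 0 of 9 members, against 15.1% of all genes. Relative to the pan-endothelial list, Vwf alone gave groups that did not overlap, with 0.63 (exact permutation p = 0.1), and no share over all genes was taken there. The log2 fold change of Vwf was 0.96 (SE 0.351, adjusted p = 0.418, edgeR), just under the fold limit. TA 1 and TA 3 lay above every Normal liver for Vwf and TA 2 within their range.

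Stab2 gave 0.52 (SE 0.230, adjusted p = 0.536, edgeR) and Clec4g 0.48 (SE 0.276, adjusted p = 0.700, edgeR) in TA VS Normal. TA 1 and TA 2 were above the Normal range for both genes. Fcgr2b gave 0.03 (SE 0.201), Lyve1 0.24 (SE 0.248), Stab1 0.14 (SE 0.412), Gata4 0.29 (SE 0.230), Plvap -0.08 (SE 0.386) and Cd34 0.56 (SE 0.786). All 6 sinusoidal genes had a positive value, none past its test. Cd34 had 1 to 22 raw counts per liver in these groups, and its standard error was larger than its fitted value, so that value cannot be told from 0.

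Other endothelial genes, in lists chosen by known role, showed how far the members stand for their kind. In Model VS Normal, the 13 other sinusoidal genes had 0 calls at adjusted p and 1 by p and fold, lower, where 5.55% of all genes were, with a median log2 fold change of 0.20. That gene was Dnase1l3, a nuclease secreted by the sinusoid, at 29.8, 23.8 and 13.3 CPM in Normal and 5.21, 6.45 and 17.3 CPM in Model (log2 fold change -1.21, SE 0.504, adjusted p = 0.159, edgeR). Model 3 was within the Normal range of Dnase1l3, the same placing as for Stab2. Flt4, the receptor of the lymphatic growth factors, gave 0.90 (SE 0.377, adjusted p = 0.161, edgeR).

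The 17 tested genes of continuous or activated vessels had a median of 2.58. By p and fold 13 were higher (16.6% of all genes) and 1 lower (5.55%), and 7 rose at adjusted p (6.86%). Those 7 were Aplnr, Sparcl1, Cd9, Cav1, Aqp1, Mcam and Rgcc. Of the 13 higher genes, Aplnr, Apln, Rgcc, Edn1 and Angpt2 passed the filter on low counts only with their Model counts. Their calls and the median therefore carry no weight as support. All of these but Angpt2 were also too low to be tested in TA VS Normal. Cd9, a tetraspanin, stood at 3.74, 3.15 and 4.11 CPM in Normal and 79.8, 61.4 and 18.7 CPM in Model, a log2 fold change of 3.87 (SE 0.531, adjusted p = 0.0119, edgeR). Aqp1, the endothelial and biliary water channel, stood at 7.81, 14.9 and 11.3 CPM in Normal and 96.8, 64.8 and 41.5 CPM in Model, with 2.58 (SE 0.386, adjusted p = 0.0139, edgeR). In both genes every Model liver, Model 3 included, exceeded every Normal liver.

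The other 5 had fitted log2 fold changes of 2.69 for the matrix glycoprotein Sparcl1, 2.84 for the caveolar coat protein Cav1, 2.79 for the adhesion molecule Mcam, 6.29 for the apelin receptor Aplnr and 5.11 for Rgcc. Their adjusted p ran from 0.0171 to 0.0456 (edgeR). Aplnr and Rgcc rested on few reads in Normal: raw counts of 7, 5 and 0 for Aplnr and 1, 2 and 0 for Rgcc. Model livers held 1337, 170 and 16 reads of Aplnr and 90, 47 and 19 of Rgcc. The 1 gene of the list that was lower by p and fold was Selp, the platelet and endothelial selectin, named after its values were seen, at -1.27.

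**Figure D4:**
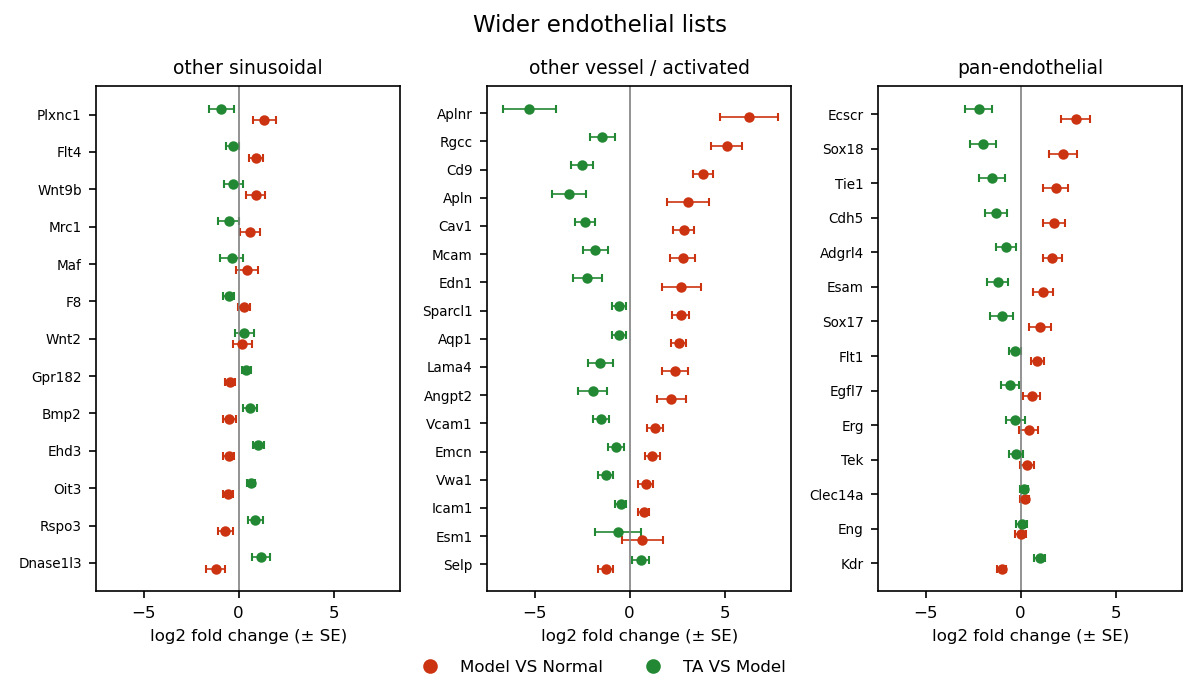
Fitted log2 fold change ± SE (horizontal axis, edgeR) of the other sinusoidal, continuous-vessel or activated, and pan-endothelial genes tested, in Model VS Normal (red) and TA VS Model (green), which share the Model livers. In Model VS Normal 16 of 17 vessel genes lie right of 0, whereas the 13 sinusoidal genes split 7 to 6.

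Of the 14 pan-endothelial genes tested, 5 were higher and 1 lower by p and fold (16.6% and 5.55% of all genes), 0 at adjusted p, with a median of 0.95. Ecscr, an endothelial surface regulator, was highest, with 2.89 (SE 0.782, adjusted p = 0.0606, edgeR). Its raw counts were 11, 12 and 5 in Normal and 234, 58 and 19 in Model. It passed the filter only with its Model counts, so its call carries no weight as support. Kdr, the main receptor of Vegfa, was the exception: 61.5, 51.2 and 57.9 CPM in Normal and 27.1, 21.5 and 36.2 CPM in Model. The 2 groups of Kdr did not overlap, and its log2 fold change was -1.01 (SE 0.252, adjusted p = 0.0503, edgeR). The adjusted p of Kdr fell on either side of 0.05 among the alternatives on all livers: 0.046 with RLE scaling, 0.0488 without a filter, 0.00436 with DESeq2, 0.0487 with the newer quasi-likelihood form, 0.0279 with all 9 libraries and 0.0494 with the replicate block, but 0.33 with library totals and 0.0723 with at least 10 counts in every library. Leaving out 1 rat, it ranged from 0.02 to 0.158.

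Among 11 ligands tested, 5 were higher by p and fold (16.6% of all genes). Of these, Edn1, Angpt1, Angpt2 and Vegfd passed the filter only with their Model counts, so their calls carry no weight as support. Vegfd, which signals through Flt4, was the 1 that rose at adjusted p (6.86% of all genes). Vegfd stood at 0.498, 1.93 and 0.336 CPM in Normal (raw counts 6, 30 and 4) and 46.9, 25.6 and 17.4 CPM in Model. Its log2 fold change was 4.96 (SE 0.684, adjusted p = 0.0119, edgeR). Angpt1, the ligand of Tek, gave 2.12 (SE 0.620, adjusted p = 0.0733, edgeR).

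Among 12 receptors, 6 were higher and 1 lower (Kdr) by p and fold, and 3 rose at adjusted p, against the same shares of 16.6%, 5.55% and 6.86% of all genes. These were the co-receptor Nrp1 (2.72, SE 0.522), the endothelin receptor Ednrb (3.65, SE 0.808) and the BMP receptor Acvrl1 (1.70, SE 0.419), with adjusted p of 0.0273, 0.0386 and 0.0483 (edgeR). Of 6 regulators 3 were higher by p and fold, beside 16.6% of all genes, among them Id1, a BMP target (1.31, SE 0.392), and the flow-responsive factor Klf4 (1.40, SE 0.444), with adjusted p of 0.0764 and 0.0886 (edgeR).

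Of these list genes, 11 had passed the adjusted p with all 6 livers, among them Aplnr, Rgcc and Vegfd, which passed the filter only with their Model counts. Without Model 1, 9 of the 11 passed it, without Model 3 all 11, and without any 1 Normal liver 0 of 11, with log2 fold changes from 1.59 to 7.02. With at least 10 counts in every library, 8 of the 11 were tested and 6 passed. Over all genes, calls fell from 1002 to between 0 and 51 without 1 Normal liver, and to 465 with at least 10 counts in every library. By p and fold without Model 1, 10 of 17 vessel genes were higher (5 at adjusted p), 4 of 11 ligands, 3 of 12 receptors, 1 of 14 pan-endothelial genes and 1 of 6 regulators. Over all genes 12.2% were higher in that fit, and 5.75% at adjusted p. The median of the other sinusoidal list moved to -0.40 and that of the pan-endothelial list to 0.26.

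In TA VS Model, 10 of the 17 vessel genes were lower by p and fold (median -1.51, 10.2% of all genes), and 7 without Model 1 (4.96% of all genes). Among the 10, Aplnr, Apln, Edn1 and Angpt2 again passed the filter only with their Model counts and carry no weight as support. Of the 13 other sinusoidal genes, Dnase1l3 (1.18, adjusted p = 0.290, edgeR) and Ehd3, an endocytic trafficking protein named after its values were seen (1.03), were higher (2.11% of all genes), and 0 without Model 1. Kdr was higher in TA at 52.9, 47.4 and 69.8 CPM, above every Model liver, with 1.01 (SE 0.279, adjusted p = 0.252, edgeR). Sparcl1 and Aqp1 stayed above the Normal livers in all 3 TA livers, at 64.9 to 91.9 CPM and 31.2 to 53.8 CPM, with 2.09 and 1.98 in TA VS Normal (adjusted p = 0.0522 each, edgeR). Vegfd also did, at 10.2, 7.28 and 9.18 CPM (3.17 in TA VS Normal, adjusted p = 0.0862, edgeR), though it passed the filter there only with its TA counts. With the rat number as a replicate block, the edgeR adjusted p in TA VS Normal passed 0.05 for Sparcl1 (0.0119), Aqp1 (0.0373), Vegfd (0.0414), Nrp1 (0.0119, against 0.134 without) and Ednrb (0.0375, against 0.217), where 1.67% of all genes did. The block was read from these same gene levels and not from the labels, so its values are a description and carry no weight as support.

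Summed markers of several other liver cell types also differed between Normal and Model livers, and their part in these results was not tested. For macrophage, platelet and B cell markers the Normal and Model ranges overlapped. The summed CPM of 5 hepatocyte markers was 23270 to 85650 in Model, lowest in Model 1, against 96200 to 124600 in Normal and 74230 to 135300 in TA. That of 8 stellate cell and fibroblast markers was 12400 in Model 1, 1346 in Model 2 and 1733 in Model 3, against 552 to 630 in Normal and 995 to 1420 in TA. By p and fold, 7 of those 8 were higher in Model VS Normal, beside 16.6% of all genes. In TA VS Normal only 7 of the 8 passed the filter on low counts. Not all of them thus passed it here without their Model counts, so this count carries no weight as support. Of 4 lymphatic endothelial markers, which share Lyve1 and Flt4 with the sinusoid, 3 were higher by p and fold (16.6% of all genes). Only 3 of the 4 passed the filter in TA VS Normal, so this count likewise carries no weight as support. The sum of the 4 was 120 to 822 CPM in Model against 23.2 to 32.5 in Normal. That sum was highest in Model 2, where Lyve1 was at 39.2 CPM.

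The 9 macrophage markers, relevant to Stab1, summed to 219 to 682 CPM in Model, with Model 1 highest, against 331 to 453 in Normal and 304 to 737 in TA. Among TA livers the sum was highest in TA 1, where Stab1 was at 31.0 CPM. It was lowest in TA 3, where Stab1 was at 83.3 CPM. Platelet markers, relevant to Vwf, summed to 25.6 to 75.8 CPM in Model and 24.6 to 42.9 in Normal, and Model 2, whose Vwf was 70.1 CPM, was at 25.9. Mesothelial markers summed to 25.0 to 82.9 CPM in Model and 0.839 to 2.49 in Normal, where Lrrn4 was at 0, and the 4 cholangiocyte markers to 75.8 to 139 against 15.7 to 23.5. B cell markers summed to 2.6 to 12.1 CPM in Model and 3.80 to 6.55 in Normal.

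As a description over the 9 livers, the genes whose log2 CPM tracked Stab2 most closely among 7958 compared were Cyp2c13 (Pearson r = 0.982), Pros1 (0.982), Ide (0.979), Cpped1 (0.978) and Decr2 (0.978). For Plvap they were Gas6 (0.922), Pdlim1 (0.891), Ezh1 (0.890), Fundc2 (0.886) and Sdpr (0.869). Livers share their composition and library across genes, so no p is given. Without Model 1 these values ran from 0.944 to 0.962 for Stab2 and from 0.824 to 0.907 for Plvap. Among the members, Stab2 tracked Clec4g (r = 0.977) and Fcgr2b (r = 0.950).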

How the data were processed

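Liver RNA of 9 rats was analysed in 3 groups of 3. The authors trimmed reads with Trimmomatic and Cutadapt, mapped them with STAR and counted them per gene with HTSeq-count. The study's methods name a human genome and the submitters' processing notes mm9, whereas the symbols are rat symbols, so the reference used is uncertain, and mapping may have affected genes unequally. The authors deposited read counts, FPKM, a signal of counts divided by size factors, and columns of their own comparison (log2 fold changes and p-values), which were not used. TA libraries carry labels numbered 1 to 3 and were taken as 1 group at 3.0 mg/kg from the design text.

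Deposited counts were tested in R 4.3.3 with edgeR 4.0.16 (TMM, filterByExpr, glmQLFit, glmQLFTest; limma 3.58.1), using only the 2 groups compared, with Benjamini-Hochberg adjustment over all genes tested. Log2 CPM used a prior count of 2. DESeq2 1.42.0 was an alternative. Others were RLE or library totals, no filter, at least 10 counts in every library, the newer quasi-likelihood form, all 9 libraries, a replicate block, and leaving out each rat. Scripts were tested on simulated data. Deposited FPKM served for levels between genes. The p-values of edgeR and DESeq2 set a difference between groups against the spread between rats.

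The members and lists were chosen with earlier results of these data known. Named were all members, of each list the 2 genes with the lowest p in Model VS Normal and every gene at adjusted p, and the 5 genes most correlated with Stab2 and with Plvap. Genes outside this rule are named as such. Rats of different groups are different animals. Gene levels, as differences from the group mean, correlated at 0.258, 0.426 and 0.501 for rats with the same number in TA VS Normal. Unlike numbers there ran from -0.452 to 0.171. Same-number values were 0.21, -0.0567 and -0.0519 in Model VS Normal and 0.218, -0.0355 and 0.00655 in TA VS Model. A pairing was thus read from the data and not from the labels. It comes from the same gene levels that the replicate block tests, so the block's values are a description and carry no weight as support.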

Additional observations from a re-analysis of the deposited data

How the results depend on the processing

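The sign of the fitted change of Stab2, Clec4g, Fcgr2b, Cd34, Plvap and Vwf in Model VS Normal and TA VS Model was kept under every alternative run. Members at adjusted p in Model VS Normal numbered 0, but 2 with library totals, 2 with DESeq2, 2 with all 9 libraries, 2 with the replicate block (Cd34 and Plvap), 1 without a filter, and 0 to 6 leaving out a rat; by p and fold the latter gave 2 to 6. TA VS Model gave 1 with DESeq2 at adjusted p, and 1 to 6 by p and fold leaving out a rat. TA VS Normal gave 1 by p and fold with library totals and 0 to 1 leaving out a rat. The labels give no pairing of rats, and the block called 0 members in TA VS Normal. There it moved calls over all genes from 32 to 203. Library totals alone shifted the median of all genes by 0.65, -0.48 and 0.18.

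Values near 0 changed sign. Lyve1 in Model VS Normal (0.02) went to -0.00103 (RLE), -0.00592 (no filter), -0.000735 (DESeq2) and -0.0249 (replicate block). In TA VS Model, Lyve1 went to -0.287 and Gata4 to -0.507 with library totals, and Gata4 to -0.00545 with 10 counts in every library. In TA VS Normal, library totals gave 0.0997 for Plvap, 0.109 for Dnase1l3 and 0.154 for Kdr. Relative to other pan-endothelial references, Plvap was -0.241 (Model VS Normal), Vwf 0.213 (TA VS Model) and Gata4 -0.145 (TA VS Normal) with Cdh5 alone, and Lyve1 0.0552 (TA VS Normal) with the list's median.

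Leaving out 1 rat at a time, fitted log2 fold changes that changed sign ranged as follows. In Model VS Normal, Lyve1 -0.306 to 0.151, Stab1 -0.295 to 1.06, Gata4 -0.00132 to 0.499. In TA VS Model, Stab1 -1.2 to 0.466, Gata4 -0.178 to 0.313, Flt4 -0.574 to 0.0576, Ednrb -1.5 to 0.321. In TA VS Normal, Stab1 -0.511 to 0.399, Fcgr2b -0.0724 to 0.204, Plvap -0.414 to 0.252, Dnase1l3 -0.34 to 0.187, Kdr -0.206 to 0.0763, Klf4 -0.512 to 0.527. Levels relative to the pan-endothelial list did so likewise. In Model VS Normal, Plvap -0.0294 to 0.686. In TA VS Model, Stab1 -0.253 to 0.324, Vwf -0.485 to 0.113. In TA VS Normal, Lyve1 -0.27 to 0.159, Stab1 -0.597 to 0.05, Gata4 -0.184 to 0.242, Cd34 -0.113 to 1.24. Alternatives for list genes and list counts without Model 1 were chosen after seeing the data. The cause of each change was not tested. Fits that leave a group with 2 rats rest on few degrees of freedom.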
